A study of Mus musculus with 4 samples.

Results

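Desmosome genes of keratinocytes were followed, 10 of the 32285 genes listed in each library, through the layers of the epidermis and the compartments of the hair follicle. They were chosen by name: the desmogleins Dsg1a, Dsg2 and Dsg3, the desmocollins Dsc1, Dsc2 and Dsc3, desmoplakin (Dsp), plakoglobin (Jup), plakophilin 1 (Pkp1) and Perp. All 10 were found once in all 4 libraries.

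Desmosomes are button-like junctions that hold neighbouring cells together and tie their keratin filaments into one mechanical network. Desmogleins and desmocollins are cadherins that reach across the gap between cells. Inside the cell their tails bind plakoglobin and plakophilins, which bind desmoplakin, and desmoplakin grips the keratin filaments. Skin is among the tissues richest in desmosomes, and loss of single components is known to cause blistering or fragile skin. The cadherins are known to be exchanged as a keratinocyte moves outward, with Dsg3 and Dsc3 most prominent in the lower layers and Dsg1 and Dsc1 in the upper ones. Perp, a small membrane protein of the desmosome, is a known target of p63, the transcription factor of stratified epithelia.

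The cells came from the back skin epidermis of adult mice (2 to 17 months old, males and females at 50:50 per the labels), freed with 0.25% trypsin and sequenced as single cells in droplets. Control mice were DNp63fl/fl and experimental mice DNp63fl/fl;K14-CreT2, in which an inducible Cre recombinase under the keratin 14 promoter deletes ΔNp63, the p63 isoform of basal keratinocytes. All mice in both groups received 200 mg/kg tamoxifen by gavage on each of 5 days, so the controls had the drug and the floxed alleles but no Cre. The labels do not tie age, sex, number of animals or digestion to a library. Cells were taken 1 day or 1 week after ablation, with 1 library for each of the 4 groups (1-day control, 1-day experimental, 1-week control and 1-week experimental). With a single library on each side, the differences below carry no replicate check and were not tested. Intervals are 95% intervals for counting error only: exact Poisson for levels, exact binomial for shares and ratios. A 3′ kit served for the 1-day libraries and a 5′ kit for the 1-week libraries, so each experimental library was compared only with the control of its own time point.

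The libraries held 179736563 (1-day control), 144323031 (1-day experimental), 88903603 (1-week control) and 68191870 (1-week experimental) gene UMIs, a UMI being 1 captured RNA molecule, over 18413 to 33552 barcodes. Median depth was 1298 to 4209.5 UMIs per barcode. The lowest UMI count of a listed barcode was 500 in both controls, 1368 in the 1-day and 1059 in the 1-week experimental library. The 1-day pair shared 299 barcodes and the 1-week pair 661. Xist, a transcript of female cells, had 6 UMIs in each 1-day library. At 1 week it stood at 289 CPM (UMIs of a gene per 1000000 gene UMIs) in the control and 143 CPM in the experimental library. The Y-chromosome genes Ddx3y, Uty, Eif2s3y and Kdm5d summed to 171 and 177 CPM at 1 day (control and experimental) and 111 and 86.8 CPM at 1 week. The sexes were thus not represented alike at 1 day and at 1 week. Within the 1-week pair Xist and the Y-chromosome genes were both lower in the experimental library, so a different mix of sexes there is not shown. The targeted gene could be followed only as Trp63 as a whole, because the counts do not separate its isoforms and do not test the deleted part. In the basal-like class Trp63 stood at 599 CPM in control and 336 CPM in experimental cells at 1 day, and in the bulge-like class at 392 and 292 CPM. At 1 week it stood at 539 and 352 CPM in the bulge-like class.

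Levels were summed over the cells of 6 classes: basal-like, spinous-like and granular-like cells of the interfollicular epidermis, bulge-like cells (the stem cell region of the follicle), upper follicle-like cells and sebaceous-like cells. The desmosome genes were held out of the clustering that defined them. In most clusters the leading genes carried markers of the names, for instance Mt4, Krt1 and Krt10 among the leading genes of a spinous-like cluster, Flg2, Hrnr and Lor in the granular-like, Cd34, Krt24 and Lgr5 in bulge-like clusters and Krt79, Cst6 and Defb6 in an upper follicle-like cluster. No marker of the name was among the 10 leading genes of the basal-like cluster, of the 1-day spinous-like cluster 7 (1659 control and 613 experimental cells) or of the 1-day upper follicle-like cluster 24 (200 and 119 cells, led by Ccl2, Ccl7 and Ccl1). In the basal-like cluster the 8 basal interfollicular markers summed to 24046 CPM, against 3267 CPM in spinous-like cells of the 1-day control. Classes do not hold the same cells in both libraries. The 1-day control held 4842 basal-like and 5218 spinous-like cells and the 1-day experimental library 482 and 994. At 1 week these numbers were 2018 and 1158 in the control against 17 and 8, so the experimental basal-like and spinous-like levels at 1 week were not compared. Low-UMI clusters had been set aside before, under a looser limit at 1 week than at 1 day. At 1 week they held 11475 control and 11189 experimental cells. The latter held 9723 CPM of Krt14, so the class sizes are not counts of the cells in the tissue. Much of the 1-day experimental library lay instead in clusters with few or no control cells: 6762 cells in a pair of clusters with Krt8, a keratin of simple epithelia, among their 10 leading genes, and 3509 cells in clusters led by Sprr2 or Lce1 genes, which code for proteins of the cornified envelope. The sum over keratinocytes took in all classes with keratinocyte names, cycling cells, keratinocytes without a class and clusters found almost only in the experimental libraries, but not the former pair (21100 control and 13429 experimental cells at 1 day, 5930 and 3159 at 1 week). That pair, called Krt8-marked here, is described apart. It is cluster 3 (3542 experimental cells), led by Krt8, and cluster 4 (3220 experimental cells), led by Asprv1, a protease of the outer layers. The Krt8-led cluster 7 of 1 week (437 experimental cells) was left out of the sums in the same way. So were 1-week clusters that mixed keratinocyte markers with those of other cell types, 1654 control and 414 experimental cells, in which Dsg1a stood at 707 and 138 CPM and Dsc1 at 168 and 176 CPM.

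Among the desmogleins, Dsg1a, the desmoglein of the outer layers, lies on chromosome 18 at 20310811 to 20343350 (GRCm38, plus strand). In the 1-day control it stood at 169 CPM in basal-like, 1222 CPM in spinous-like and 1005 CPM in granular-like cells. In the follicle it stood at 56.0 CPM in the bulge-like and 480 CPM in the upper follicle-like class, and it was lowest in sebaceous-like cells at 42.3 CPM. No neighbouring pair in this order had overlapping counting intervals. The 1-week control gave the same steps, 230 CPM in basal-like, 1208 CPM in spinous-like, 33.8 CPM in bulge-like and 605 CPM in upper follicle-like cells. Granular-like Dsg1a there (665 CPM from 42 cells) overlapped the upper follicle-like interval. Dsg1a was thus highest in the outer epidermis and higher in the upper part of the follicle than in the bulge. Free RNA sets a floor to such levels: Langerhans-like cells, immune cells that should lack the gene, held 57.5 CPM of Dsg1a in the 1-day control and 2.51 CPM in the 1-week control. The 1-day bulge-like and sebaceous-like levels of Dsg1a do not exceed that floor and are read as background.

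Dsg3, the desmoglein of the deep layers and the target of pemphigus vulgaris antibodies, lies on chromosome 18 at 20510274 to 20547459 (plus strand) and ran the other way. In the 1-day control it stood at 342 CPM in basal-like, 95.4 CPM in spinous-like and 26.0 CPM in granular-like cells. Bulge-like cells held 328 CPM, which overlapped the basal-like interval, and upper follicle-like cells 149 CPM. The log2 step from basal-like to spinous-like was -1.84 at 1 day and -2.13 at 1 week for Dsg3, against 2.85 and 2.39 for Dsg1a. Dsg2, the desmoglein shared with simple epithelia and heart (chromosome 18 at 20558074 to 20604521, plus strand), had the largest step of the desmogleins between the deep and the next layer. In the 1-day control Dsg2 had 88.8 CPM in basal-like and 5.00 CPM in spinous-like cells, with log2 steps of -4.15 at 1 day and -3.97 at 1 week. Sebaceous-like cells held 47.0 CPM of Dsg2, and the bulge-like (27.8 CPM) and upper follicle-like (26.3 CPM) classes had overlapping intervals. The spinous-like level of Dsg2 and the granular-like level of Dsg3 lay below those in 1-day control Langerhans-like cells (5.95 CPM of Dsg2 and 42.6 CPM of Dsg3). The 1-day step of Dsg2 therefore has no exact size.

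Among the desmocollins, Dsc3 (chromosome 18 at 19960930 to 20002351, minus strand), a desmocollin needed for the cohesion of the lower layers, had its highest level in spinous-like cells. In the 1-day control it stood at 580 CPM in basal-like, 1163 CPM in spinous-like and 201 CPM in granular-like cells. Its levels in bulge-like (575 CPM) and basal-like cells overlapped in their intervals. Dsc1 (chromosome 18 at 20084184 to 20114871, minus strand), the desmocollin of the outermost living layers, was nearly absent from the deep classes. The 1-day control had 1.44 CPM of Dsc1 in basal-like cells (32 UMIs), 1.503 CPM in bulge-like cells (17 UMIs), 67.3 CPM in spinous-like, 101 CPM in upper follicle-like and 343 CPM in granular-like cells. In the 1-week control Dsc1 had 0.700 CPM in basal-like, 1.34 CPM in bulge-like, 201 CPM in spinous-like, 443 CPM in upper follicle-like and 996 CPM in granular-like cells. The log2 step of Dsc1 from bulge-like to upper follicle-like cells was 6.08 at 1 day and 8.37 at 1 week. Dsc2 (chromosome 18 at 20030633 to 20059554, minus strand), the desmocollin of many simple and stratified epithelia, was close to the limit of detection throughout. For Dsc1 the basal-like and bulge-like levels lay below those of Langerhans-like cells (3.96 CPM at 1 day and 2.51 CPM at 1 week) and are read as background, so differences of Dsc1 against these classes have no exact size. The Langerhans-like classes of the controls held 1009007 and 399069 UMIs of all genes. Floors of a few CPM there rest on very few UMIs and are themselves uncertain. Dsc2 had 1.04 to 6.67 CPM in the 6 classes of the 1-day control, highest in spinous-like cells.

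**Figure D1:**
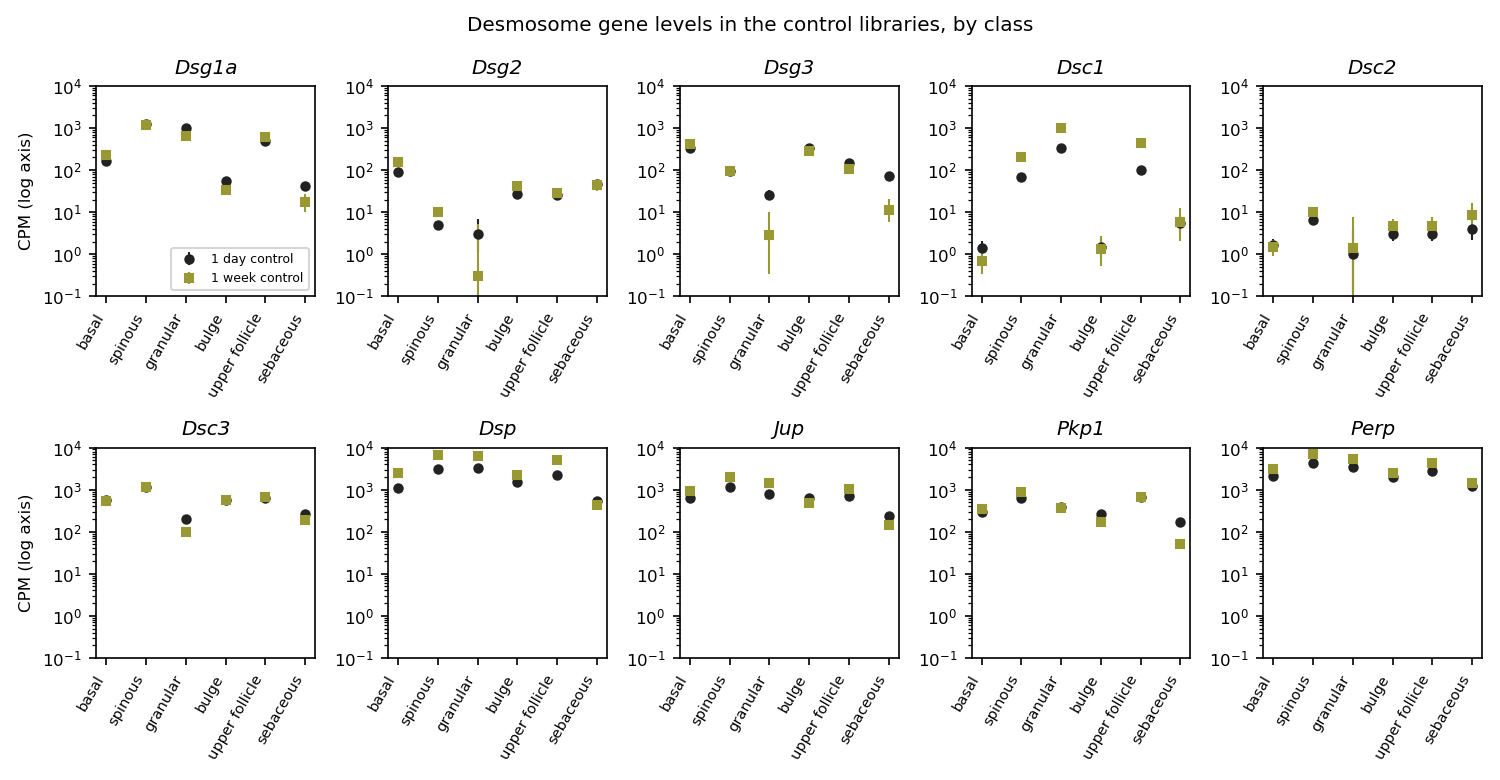
Levels of the 10 genes in CPM (log axis) by class in the control library of 1 day and of 1 week, each point 1 library with its exact Poisson 95% interval. A level of 0 is drawn at the bottom of the axis. Dsg1a and Dsc1 are higher in spinous-like than in basal-like cells and in upper follicle-like than in bulge-like cells, and Dsg3 and Dsg2 are lower in spinous-like than in basal-like cells.

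The plaque genes and Perp were lowest in sebaceous-like cells of the 1-day control. Plakoglobin is the armadillo protein that links the cadherin tails to desmoplakin and is shared with adherens junctions. In the 1-day control Jup (chromosome 11 at 100368958 to 100397763, minus strand) stood at 615 CPM in basal-like, 1164 CPM in spinous-like, 771 CPM in granular-like, 647 CPM in bulge-like, 692 CPM in upper follicle-like and 230 CPM in sebaceous-like cells. Pkp1 (chromosome 1 at 135871395 to 135919207, minus strand), the plakophilin that clusters desmosomal proteins in the upper layers, ranged from 165 CPM in sebaceous-like to 656 CPM in upper follicle-like cells. The spinous-like level of Pkp1 (633 CPM) overlapped the upper follicle-like level. Dsp (chromosome 13 at 38151294 to 38198577, plus strand), the keratin anchor, had 1074 CPM in basal-like, 3019 CPM in spinous-like, 3322 CPM in granular-like and 539 CPM in sebaceous-like cells. Perp (chromosome 10 at 18845020 to 18857073, plus strand) had 2053 CPM in basal-like, 4372 CPM in spinous-like, 3513 CPM in granular-like and 1229 CPM in sebaceous-like cells. From basal-like to spinous-like cells the log2 steps of these 4 genes in the 1-day control were 0.92 for Jup, 1.13 for Pkp1, 1.49 for Dsp and 1.09 for Perp, all upward and all smaller than that of Dsg1a.

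RefSeq promoter sequences (GRCm38.p6) are shown for 2 of the 10 genes, the plaque genes Dsp and Jup. The promoters of the other genes, including all desmogleins and desmocollins, were not examined. In keratinocytes their log2 ratios of experimental over control at 1 day and 1 week were -0.04 and -0.44 for Dsp and -0.18 and -0.50 for Jup. The 250 bases before each start are given 5′ to 3′ on the gene's strand, at chr13:38151044-38151293 (plus strand) for Dsp and chr11:100397791-100398040 (minus strand) for Jup. Capitals mark the GC box (GGGCGG, or CCGCCC on the other strand) and the CCAAT box, which were chosen after the sequences were seen.
Dsp: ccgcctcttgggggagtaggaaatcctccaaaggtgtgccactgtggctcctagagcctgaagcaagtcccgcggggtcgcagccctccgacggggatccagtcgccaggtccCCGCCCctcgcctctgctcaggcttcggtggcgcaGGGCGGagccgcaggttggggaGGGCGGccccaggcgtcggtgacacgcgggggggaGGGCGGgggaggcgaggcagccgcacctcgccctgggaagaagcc
Jup: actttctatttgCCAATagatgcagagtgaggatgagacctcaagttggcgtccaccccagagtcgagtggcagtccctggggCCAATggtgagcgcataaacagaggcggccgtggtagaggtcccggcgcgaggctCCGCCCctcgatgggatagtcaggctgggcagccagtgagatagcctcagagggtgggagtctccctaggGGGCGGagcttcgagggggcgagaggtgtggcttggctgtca
The Dsp window held 4 GC boxes and no CCAAT box, with 72.4% G and C. The Jup window held 2 of each, with 62% G and C. Of 32851 promoter windows of the same length, searched on both strands, 32.7% held GGGCGG and 33.8% held CCAAT, and the median G and C content was 52.4%. The core of a p53-family half-site, CATG, and the AP-1 motif TGANTCA were in neither window, against 53.9% and 6.75% of all windows. A match or its absence describes these letters only.

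One day after ablation, with no correction for free RNA, 8 of the 10 sums over keratinocytes lay within 1.5-fold of the control. The plaque genes and Perp stood close to their controls. Dsp had 1965 CPM in control and 1907 CPM in experimental cells (log2 ratio of experimental over control -0.04), Perp 2890 and 2801 CPM (-0.05) and Pkp1 456 and 428 CPM (-0.09). Jup had 787 and 697 CPM, a log2 ratio of -0.18 (interval -0.19 to -0.16). The genes past 1.5-fold were desmocollins. Dsc1 had 41.4 CPM in control (4650 UMIs) and 87.8 CPM in experimental cells (5416 UMIs), a log2 ratio of 1.08 (interval 1.03 to 1.14). Dsc2 had 4.03 and 7.20 CPM, a log2 ratio of 0.84 (0.65 to 1.03), from 452 and 444 UMIs. Counting a gene as higher or lower where it passed 1.5-fold with at least 20 UMIs over both libraries, 2 of 10 desmosome genes were higher and 0 lower. Over all 14722 genes tested 14.3% were higher and 7.25% lower, so the desmosome genes' counts were near the background. Their median log2 ratio was -0.07 and that of all genes 0.03. These counts depended on free RNA. After the mean level of the immune cells (T-cell-like and Langerhans-like) was subtracted in each library, 4 of the 10 genes were lower (Dsg3 -1.24, Dsc3 -1.35, Jup -0.9996 and Perp -0.76) and 1, Dsc1, higher (0.94). With the Langerhans-like level alone subtracted, 0 were lower and 2 higher. The share of all genes was computed without subtraction only, so the counts after subtraction have no background beside them.

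The other 4 cadherins stayed within 1.5-fold of the control at 1 day. Dsg1a had 574 and 667 CPM (log2 ratio 0.22, interval 0.20 to 0.23). Dsg3 had 200 and 171 CPM (-0.23), Dsg2 40.4 and 35.3 CPM (-0.19), and Dsc3 775 and 573 CPM (-0.44, interval -0.45 to -0.42). Of the UMIs of Dsg1a, Dsg2 and Dsg3 together in keratinocytes, Dsg1a made up 70.4% in the control and 76.4% in the experimental library. Such a share does not depend on the scaling of the library, and Dsg1b, a near copy of Dsg1a, is not counted in it. Among desmocollin UMIs, Dsc1 made up 5.05% and 13.1% and Dsc3 94.5% and 85.8%. The sums mix classes in different proportions, and without the clusters found almost only in the experimental library the log2 ratio of Dsc1 in keratinocytes was 0.74 and that of Dsg1a -0.42. With the Krt8-marked cells counted in, they were 0.65 and 0.09.

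Antibody tags gave a look at the spread inside the 1-day libraries. Both held 3 tags with counts, and the labels do not say what the tags mark, so groups of cells by leading tag are descriptions and not replicates. Dsc1 in keratinocytes ranged from 43.2 to 47.5 CPM over the 3 tag groups of the control and from 76.3 to 117 CPM over those of the experimental library. The ranges lay apart for Dsc1, for Dsc2 (3.20 to 4.80 against 6.69 to 8.46 CPM) and for Dsc3 (755 to 812 against 566 to 603 CPM). For the other 7 genes the ranges overlapped, Dsg1a with 597 to 667 against 666 to 821 CPM. Cells without a leading tag, 5520 in the control and 6145 in the experimental library, were left out of these ranges.

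**Figure D2:**
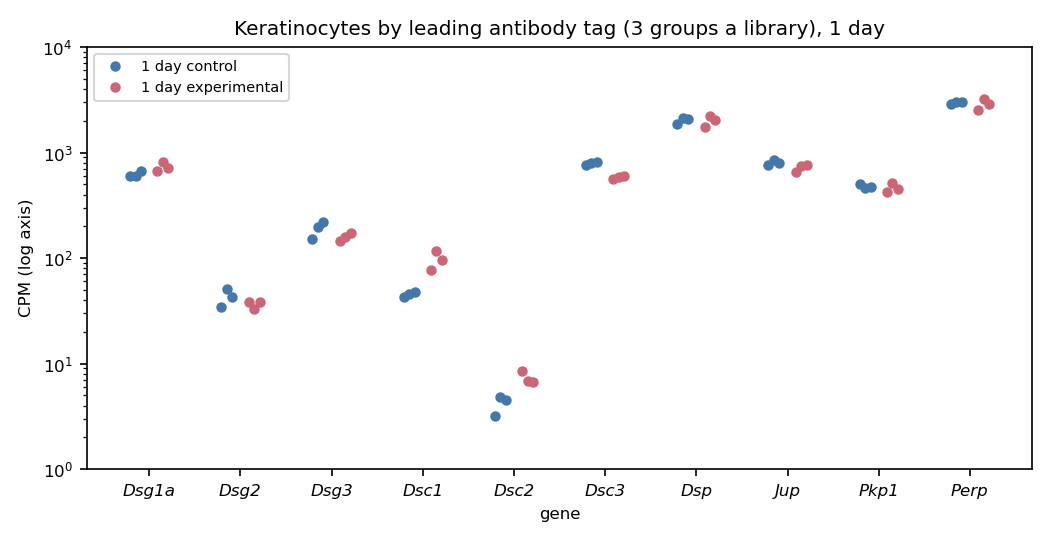
Levels of the 10 genes in 1-day keratinocytes, in CPM, for each of the 3 antibody-tag groups of the control and of the experimental library, each point 1 tag group. The points of the libraries lie apart for Dsc1, Dsc2 and Dsc3 and overlap for the other 7 genes.

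Within the interfollicular layers at 1 day, basal-like cells of the experimental library, 482 in number, had control-like levels of the abundant genes. The libraries were clustered together, so experimental cells bear this name only where they resembled the control cells. Likeness to the control is thus partly set by the choice of cells. They held 336 CPM of Trp63, against 52.6 CPM in the Krt8-marked cells, and do not stand for all experimental basal cells. Dsg3 stood at 342 and 320 CPM (control and experimental), Dsc3 at 580 and 577 CPM and Dsp at 1074 and 1036 CPM. Jup stood at 615 and 668 CPM and Perp at 2053 and 1978 CPM. The 2 genes past 1.5-fold, both higher, were near the limit of detection: Dsc1 had 32 and 6 UMIs (log2 ratio 1.38, interval -0.16 to 2.66) and Dsc2 37 and 5 UMIs (0.91, interval -0.79 to 2.26), and both intervals take in 0. Of all 10777 genes tested in this class 11.8% were higher and 13.7% lower. These and the other 1-day class values carry no correction for free RNA. After the mean level of the immune cells was subtracted, 26 of the 60 gene and class pairs were lower and 6 higher. A level at or below that of the immune cells was set to 0, and counted as lower where only the experimental one was 0. The share of all genes was not computed under this subtraction, so these counts are not read as a result about the desmosome genes.

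In spinous-like cells at 1 day, Dsc1 and Dsg2 were the 2 genes past 1.5-fold, both higher, against 12.5% of all genes higher and 11.5% lower. Dsc1 had 67.3 CPM in control (2745 UMIs) and 147 CPM in experimental cells (720 UMIs), a log2 ratio of 1.13 (interval 1.01 to 1.25). The class was built differently in the libraries, from 3559 control and 381 experimental cells of cluster 1 and 1659 and 613 cells of cluster 7. Within either cluster Dsc1 was within 1.5-fold, with 7.67 and 6.77 CPM in cluster 1 and 136 and 200 CPM in cluster 7. With experimental cells classed by their nearest control cells the log2 ratio was 0.30. After each cell was thinned to 2000 UMIs, 7.67% of control cells and 18.3% of experimental cells had a Dsc1 UMI (20.9% and 32.5% before thinning), with 134 and 92 shallower cells left out and median depths of 6357.5 and 4054 UMIs. In Langerhans-like cells (median depths 2413.5 and 2175.5 UMIs) the thinned shares were 1.06% and 0.358% for Dsc1, and in T-cell-like cells 0% of 93 cells and 8.07% of 285 cells. Dsg2 had 5.00 and 10.2 CPM (log2 ratio 1.03, interval 0.56 to 1.49) from 204 and 50 UMIs, levels near those of Langerhans-like cells (5.95 and 8.01 CPM). Dsg1a stood at 1222 and 1582 CPM in this class (0.37), while Dsp, Jup, Pkp1 and Perp had log2 ratios between -0.05 and 0.02. The sum of the 8 granular markers in spinous-like cells was 475 CPM in control and 2703 CPM in experimental cells, and its part in the Dsc1 difference was not tested.

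Granular-like cells numbered 210 in the 1-day control and 521 in the experimental library. Dsg3, low in this layer, had 26.0 CPM (50 UMIs) and 56.2 CPM (160 UMIs), a log2 ratio of 1.12 (interval 0.65 to 1.60). Langerhans-like cells held 42.6 and 36.5 CPM of Dsg3, so the control level is read as background and the ratio has no exact size, and T-cell-like cells 104 and 179 CPM. The 8 basal interfollicular markers summed to 1472 CPM in control and 1868 CPM in experimental cells and did not move as one. Itga6 (44.1 and 102 CPM), Krt14 (516 and 938 CPM) and Itgb4 (13 and 36 UMIs) were higher, while Krt5 (297 and 248 CPM), Krt15 (343 and 302 CPM) and Col17a1 (103 and 71.7 CPM) stood below their controls, as did Trp63 (82.0 and 33.7 CPM). Their part in the Dsg3 difference was not tested. Dsg2 had 6 and 23 UMIs (1.38, interval 0.04 to 2.96). These were the 2 genes higher of 9 with enough UMIs, against 11.8% of all genes higher and 10.4% lower. Dsc1 stood at 343 and 316 CPM (-0.12), so the layer with the highest Dsc1 level had a log2 ratio near 0. Dsp stood at 3322 and 2469 CPM (-0.43, interval -0.48 to -0.38), the lowest ratio of the 9 in this layer. With experimental cells classed by their nearest control cells Dsp counted as lower here.

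In the follicle at 1 day, the 2 genes past 1.5-fold in bulge-like cells were both higher, against 7.25% of all genes higher and 4.21% lower. Dsg2 had 27.8 and 44.0 CPM (log2 ratio 0.66, interval 0.43 to 0.90, from 314 and 294 UMIs) and Dsc2 3.01 and 6.28 CPM (1.06, interval 0.38 to 1.76). Over the antibody-tag groups of this class the Dsg2 ranges overlapped, 31.8 to 49.1 CPM in control and 41.9 to 45.3 CPM in experimental cells. These ranges leave out 3093 control and 1800 experimental cells without a leading tag. Dsg3 and Dsc3 differed less, Dsg3 with 328 and 351 CPM (0.10) and Dsc3 with 575 and 538 CPM (-0.10). Jup had 647 and 535 CPM (-0.28) and Perp 1988 and 1812 CPM (-0.13). In upper follicle-like cells Dsc2 alone passed 1.5-fold, with 3.11 and 7.64 CPM (1.30, interval 0.63 to 1.98, 32 and 51 UMIs), against 7.57% of all genes higher and 4.57% lower. Dsc1 in that class stood at 101 and 106 CPM and Dsg1a at 480 and 445 CPM.

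Sebaceous-like cells, with the lowest desmosome levels of the 6 classes in the control for 5 of the 10 genes (Dsg1a, Dsp, Jup, Pkp1 and Perp), showed the most differences at 1 day. There 7 of the 10 genes were higher and 0 lower, against 15.1% and 7.17% of the 9789 genes tested, and the median log2 ratio was 0.69 against 0.07 over all genes. Dsg1a had 42.3 CPM in control (151 UMIs) and 174 CPM in experimental cells (450 UMIs), a log2 ratio of 2.04 (interval 1.77 to 2.32), which has no exact size because the control level is read as background. Dsp had 539 and 927 CPM (0.78, interval 0.69 to 0.87), Jup 230 and 378 CPM (0.72) and Pkp1 165 and 252 CPM (0.61). Dsc1 (5.60 and 20.9 CPM), Dsc2 (3.92 and 16.7 CPM) and Dsg2 (47.0 and 74.7 CPM) were the other 3. Perp stood at 1229 and 1295 CPM (0.08). The experimental class was built differently. Of its cells 264 of 545 lay in cluster 21, against 135 of 575 in the control, and the higher Dsg1a was found mainly there (58.6 and 323 CPM), less in cluster 19 (35.6 and 53.9 CPM).

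Transcripts of other keratinocytes moved with this difference. The sum of the 7 spinous markers in sebaceous-like cells, all 7 detected in both libraries, was 2331 CPM in control and 7740 CPM in experimental cells, and the sum of the 8 sebaceous gland markers 5588 and 5954 CPM. Krt10, the keratin of suprabasal cells, stood at 806 CPM in control and 3528 CPM in experimental cells of cluster 21. In T-cell-like cells of the same libraries Dsg1a stood at 107 CPM in control and 432 CPM in experimental cells, and Dsp at 569 and 1348 CPM. In Langerhans-like cells Dsg1a stood at 57.5 and 55.2 CPM. Among thinned cells a Dsg1a UMI was found in 7.65% of control and 24.3% of experimental sebaceous-like cells, in 21.5% and 43.2% of T-cell-like cells and in 10.2% and 10.4% of Langerhans-like cells. The part that RNA from other cells has in the sebaceous-like difference was not tested. The control Dsg1a share there lies below those of both immune classes, and the experimental share lies between those of Langerhans-like and T-cell-like cells. Thinning left out 39 control and 113 experimental sebaceous-like cells, and 659 and 131 T-cell-like cells, which were shallower (median depths 1241.5 and 2869 UMIs, against 5011 and 3393 UMIs in sebaceous-like cells). After the mean level of the immune cells was subtracted in each library, the log2 ratio of Dsp in sebaceous-like cells at 1 day was -1.06 in place of 0.78, and with the Langerhans-like level alone subtracted it was 1.13.

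**Figure D3:**
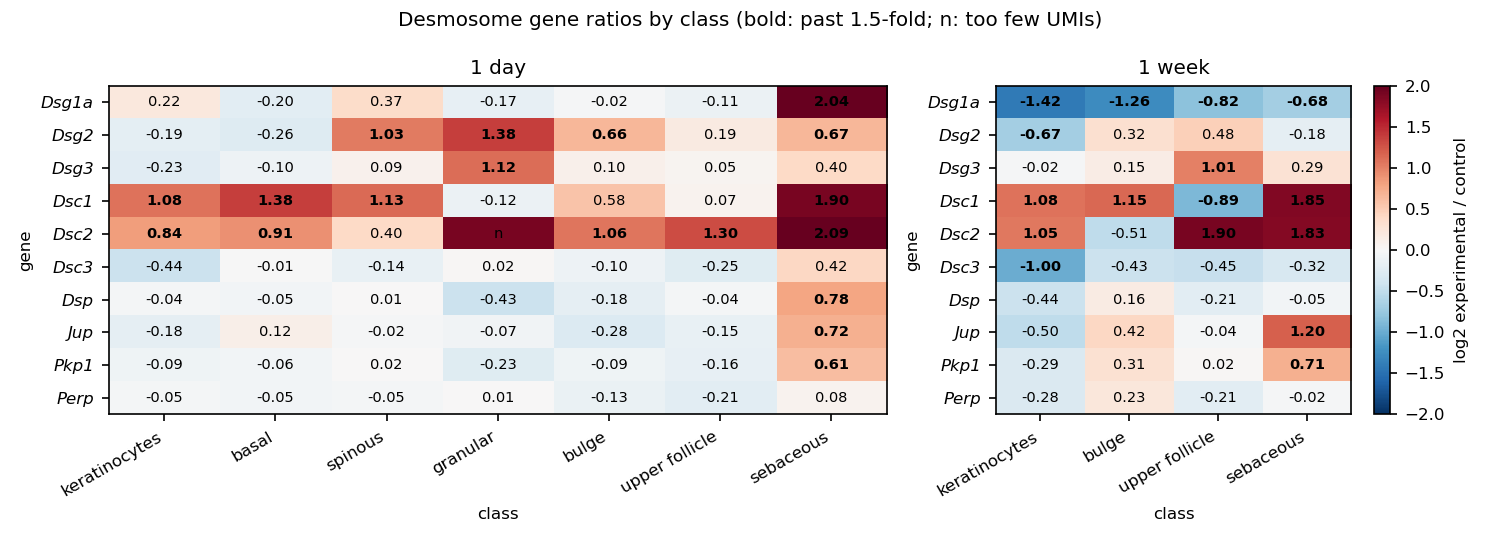
Log2 ratios of experimental over control for the 10 genes (rows) by class (columns) at 1 day and 1 week, with bold numbers past 1.5-fold and an n where fewer than 20 UMIs were counted. At 1 day most entries lie near 0 outside sebaceous-like cells, and at 1 week Dsg1a is negative in each class shown.

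One week after ablation 5 of the 10 keratinocyte sums lay past 1.5-fold. Dsg1a had 520 CPM in control (24256 UMIs) and 194 CPM in experimental cells (5834 UMIs), a log2 ratio of -1.42 (interval -1.46 to -1.38). Dsc3 had 713 and 357 CPM (-0.9996, interval -1.03 to -0.97) and Dsg2 79.3 and 49.8 CPM (-0.67, interval -0.76 to -0.59). Of the cadherins, Dsg1a, Dsg2 and Dsc3 were thus below their controls while Dsg3 was near its own, at 240 and 236 CPM (-0.02, interval -0.07 to 0.02). Dsc1 again stood higher, at 114 CPM in control (5326 UMIs) and 242 CPM in experimental cells (7255 UMIs), a log2 ratio of 1.08 (interval 1.03 to 1.13). Dsc2 had 4.84 and 10.1 CPM (1.05, interval 0.80 to 1.31). In all, 3 of the 10 desmosome genes were lower and 2 higher, against 11.2% lower and 23.2% higher over all 14178 genes, and the median log2 ratio was -0.36 against 0.13.

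The plaque genes and Perp at 1 week were below the control by less than 1.5-fold. Dsp stood at 3757 and 2776 CPM (-0.44), Jup at 1135 and 803 CPM (-0.50), Pkp1 at 502 and 411 CPM (-0.29) and Perp at 4149 and 3405 CPM (-0.28). With TMM scaling, which centres the ratios of most genes on 0, the log2 ratios were -0.59 for Dsp and -0.66 for Jup in keratinocytes, and 5 of the 10 genes counted as lower. After the Langerhans-like level was subtracted, 5 were lower too. The share of all genes was computed under neither setting, so these 2 counts have no background beside them. Of the UMIs of Dsg1a, Dsg2 and Dsg3 together, Dsg1a made up 62.0% in the control and 40.5% in the experimental library, Dsg3 28.6% and 49.1%, and Dsg2 9.46% and 10.4%. Dsg1b, with 3799 and 2208 UMIs in the same cells, was left out, so these are not shares of all desmogleins. Within the desmocollins Dsc1 made up 13.7% and 39.7% and Dsc3 85.7% and 58.6%.

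These 1-week sums rest on which cells are present. As an alternative, each class with at least 50 cells in both libraries was weighted by its share in the control. This took in no basal-like, spinous-like or granular-like cells and no clusters found almost only in the experimental library. The log2 ratio of Dsc1 was then -0.92 in place of 1.08. In the unweighted sum over keratinocytes without those clusters it was 0.37. Dsg1a stayed below its control under both, at -1.11 with control weights and -1.85 without those clusters, and at -1.01 with the Krt8-marked cells counted in. Fewer cells of a class and less RNA per cell cannot be told apart in the sums over keratinocytes.

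**Figure D4:**
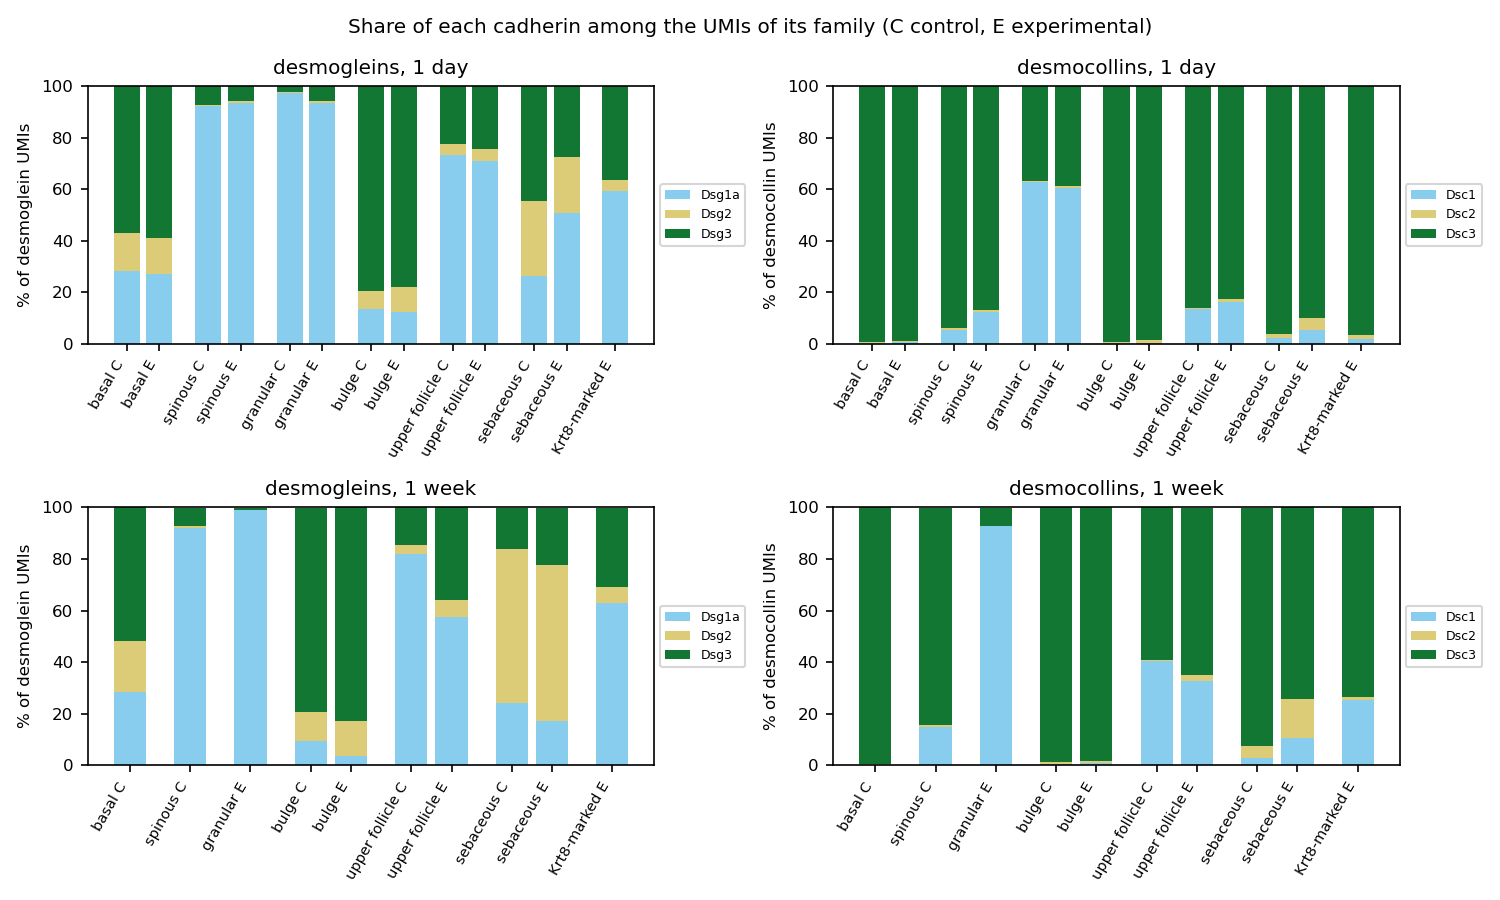
Shares (percent) of Dsg1a, Dsg2 and Dsg3 among their summed UMIs (Dsg1b left out) and of Dsc1, Dsc2 and Dsc3 among desmocollin UMIs by class, for the control (C) and experimental (E) library of each time point, for classes with at least 50 cells. In upper follicle-like cells at 1 week Dsg1a makes up 81.8% in the control and 57.5% in the experimental library.

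Upper follicle-like cells, with 480 control and 519 experimental cells at 1 week, had 2 genes lower and 2 higher, against 6.69% and 17.3% of the 10115 genes tested. The lower genes were the outer-layer cadherins Dsg1a and Dsc1. Dsg1a had 605 and 343 CPM (log2 ratio -0.82, interval -0.91 to -0.72) and Dsc1 443 and 239 CPM (-0.89, interval -1.01 to -0.78). Dsg3 was higher, with 106 CPM in control (353 UMIs) and 215 CPM in experimental cells (1034 UMIs), a log2 ratio of 1.01 (interval 0.84 to 1.19), as was Dsc2 with 16 and 87 UMIs (1.90, interval 1.12 to 2.77). The share of Dsg3 among the UMIs of Dsg1a, Dsg2 and Dsg3 was 14.4% in the control and 35.9% in the experimental library. Among thinned cells 63.6% of control and 44.0% of experimental cells had a Dsg1a UMI, 39.6% and 29.0% a Dsc1 UMI and 17.3% and 25.8% a Dsg3 UMI, against 1.11% and 1.67% of Langerhans-like cells for Dsg1a and 0% (of 90 cells) and 1.67% (of 60 cells) for both Dsc1 and Dsg3. The exact interval of 0 of 90 cells reaches 4.02%. Before thinning the upper follicle-like shares were 82.3% and 72.1% for Dsg1a, 58.5% and 50.3% for Dsc1 and 39.2% and 56.8% for Dsg3. Thinning left out 30 and 19 upper follicle-like cells, whose class had median depths of 6094 and 8167 UMIs, against 3734.5 and 6595 UMIs in Langerhans-like cells. In the same cells the sum of the 8 basal interfollicular markers was 4261 CPM in control and 7334 CPM in experimental cells, that of the 7 spinous markers 14206 and 9676 CPM and that of the 8 granular markers 1032 and 3297 CPM. The basal markers did not move as one. Krt14 (1497 and 4937 CPM) and Krt5 (560 and 1044 CPM) were higher, while Krt15 (1805 and 937 CPM) and Col17a1 were lower. The part of these shifts in the desmosome values was not tested. With experimental cells classed by their nearest control cells (728 cells), the log2 ratios were -0.05 for Dsc1, -0.46 for Dsg1a and 1.16 for Dsg3, so that of these Dsg3 alone stayed past 1.5-fold. The plaque genes and Perp were within 1.5-fold: Dsp stood at 5000 and 4324 CPM, Jup at 1041 and 1014 CPM, Pkp1 at 654 and 664 CPM and Perp at 4289 and 3710 CPM.

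Bulge-like cells at 1 week (1086 and 968 cells) had 1 gene lower and 1 higher, against 10.9% and 9.17% of all genes. The lower one was Dsg1a, already rare there, with 33.8 and 14.1 CPM (177 and 76 UMIs, log2 ratio -1.26, interval -1.67 to -0.86). The experimental Langerhans-like cells held 29.1 CPM of Dsg1a, so the experimental bulge-like level is read as background and the ratio has no exact size. The higher one, Dsc1, rests on 7 and 16 UMIs and its interval (-0.21 to 2.68) takes in 0. Dsg3 had 292 and 324 CPM (0.15) and Dsc3 568 and 421 CPM (-0.43). In contrast to the sums over keratinocytes, Jup (491 and 658 CPM, 0.42), Pkp1 (173 and 215 CPM, 0.31), Perp (2445 and 2863 CPM, 0.23) and Dsp (2172 and 2426 CPM, 0.16) all lay above the control in the bulge-like class.

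The 1-week sebaceous-like class was small, 106 control and 76 experimental cells, and had 4 genes higher and 1 lower, against 20.3% and 12.4% of all genes. Jup had 145 CPM in control and 333 CPM in experimental cells (1.20, interval 0.93 to 1.48) and Pkp1 51.2 and 83.5 CPM (0.71, interval 0.21 to 1.21). The Pkp1 ratio turned to -0.53 after the mean level of the immune cells was subtracted and to -0.84 with the Langerhans-like level alone. Dsc1 had 6 and 25 UMIs and Dsc2 9 and 37 UMIs. Dsg1a, the gene counted as lower, had 18 and 13 UMIs and an interval of -1.83 to 0.43, and its log2 ratio was 0.15 as a mean of CPM over cells. Dsp (421 and 407 CPM) and Perp (1443 and 1425 CPM) were within 1.5-fold. Further experimental cells lay in clusters without control cells that shared leading genes with this class (Fa2h, Elovl3, Cidea, Far2 and Soat1): 182 in cluster 20, 104 in cluster 28 and 99 in cluster 29. With experimental cells classed by their nearest control cells (457 sebaceous-like cells), 6 genes were higher and 0 lower, against 21.1% and 14% of all genes, and Dsg1a was among the higher (0.84). Granular-like cells at 1 week were too few in the control for a comparison (42 cells against 162). Their Dsg1a stood at 665 and 367 CPM, their Dsc1 at 996 and 665 CPM and their Dsp at 6320 and 3577 CPM.

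Because few experimental cells clustered with the control basal-like and spinous-like cells, experimental cells were also given the class of the 15 control cells nearest to them. At 1 day this placed 3183 experimental cells with the basal-like and 7609 with the spinous-like class. By cluster only 482 and 994 experimental cells had these names. The assignment took in the Krt8-marked clusters and those found almost only in the experimental library. Its values therefore share cells with those given apart for such clusters and are not a separate observation. In the basal-like class Dsc1 and Dsc2 were higher (2 of 10, and 0 lower), with log2 ratios of 1.48 and 2.60, against 16.5% of all genes higher and 12.8% lower. The control Dsc1 level is read as background, so its ratio has no exact size. In the same cells Krt10 (1.88) was higher and Krt5 (-0.89), Krt14 (-0.61), Col17a1 (-1.85), Itgb4 (-0.79) and Dst (-1.53) were lower, and Itga6 stood at -0.05. In the spinous-like class Dsc3 was lower, at 1163 and 760 CPM (-0.61), and Dsg2 (1.02) and Dsg3 (95.4 and 156 CPM, 0.71) were higher, against 13.5% lower and 17.4% higher. The control Dsg2 level is read as background, so its ratio has no exact size. Among the layer markers of these cells Krt14 (1.06) and Itga6 (0.93) were higher and Krt5 (-1.09), Col17a1 (-1.83), Krt1 (-1.15) and Krt10 (-0.63) lower. The part of these markers in the desmosome values was not tested. Under this assignment the spinous-like Dsc1 difference of the clusters did not pass 1.5-fold.

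At 1 week the same assignment allowed the layers to be compared, with 226 basal-like and 253 spinous-like experimental cells. In basal-like cells Dsc1 had 0.700 CPM in control (10 UMIs) and 22.7 CPM in experimental cells (72 UMIs), a log2 ratio of 5.02 (interval 4.06 to 6.14), and Dsc2 1.47 and 19.5 CPM (3.73). Langerhans-like cells held 2.51 and 13.4 CPM of Dsc1, so the control level is read as background. Some markers of the outer layers moved with Dsc1 in these cells: Krt10 had 112 and 1090 CPM (3.28) and Cdsn 11 and 13 UMIs (2.41), while Krt5, a basal keratin, was lower (-0.76). Krt1, also a keratin of the outer layers, did not move with them and stayed within 1.5-fold, as did Krt14. The part of these markers in the Dsc1 value was not tested. Dsc1 and Dsc2 were the 2 genes higher, with 0 lower, against 24.6% and 19.4% of all genes. In spinous-like cells Dsg1a (1208 and 662 CPM, -0.87) and Dsc3 (1149 and 653 CPM, -0.82) were lower and Dsg3 (95.4 and 219 CPM, 1.20) and Dsc1 (201 and 383 CPM, 0.93) higher, against 19.6% lower and 15.8% higher. Spinous-like cells so assigned thus held less Dsg1a and Dsc3 and more of the deep-layer Dsg3 and the outer-layer Dsc1 than the control. Layer markers moved with them: Krt14 (3.03) was higher, and Krt10 (-0.72), Cdsn (-0.77), Col17a1 (-4.00), Itgb4 (-1.82) and Dst (-2.51) were lower. Their part was not tested.

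The Krt8-marked cells, 6762 in the 1-day experimental library and 13 in its control, had summed levels between those of the control basal-like and spinous-like cells for 9 of the 10 genes. Their Krt8 stood at 1336 CPM, against 0.0901 CPM in control basal-like cells. Of 7 Merkel cell markers 3 were detected in them, so they get no cell type name. Krt8 was not particular to them: it stood at 962 CPM in cycling and 450 CPM in T-cell-like cells of the same library. The sum over the pair pools clusters that differ. Krt8 stood at 2036 CPM in cluster 3 and 648 CPM in cluster 4. Cluster 3 held 7520 CPM of Krt14 and 2587 CPM of Krt10, and cluster 4 2359 and 7089 CPM, so the former leaned to the basal-like and the latter to the spinous-like side. In cluster 3 Dsg1a stood at 326 CPM, Dsg2 at 58.4 CPM and Dsg3 at 353 CPM. In cluster 4 these were 633, 13.0 and 243 CPM. Dsp stood at 1201 CPM in cluster 3 and 1723 CPM in cluster 4. Within either cluster these levels too lay between the control layers, apart from Dsg3 in cluster 3, which was above the basal-like level. Over both clusters Dsg1a stood at 481 CPM, above control basal-like cells (log2 1.51) and below control spinous-like cells (-1.34). Dsg3 stood at 297 CPM, near basal-like cells (-0.20) and above spinous-like cells (1.64). Dsc1 was at 12.1 CPM, above basal-like cells (1.44 CPM, read as background) and below spinous-like cells (-2.47), and Dsg2 at 35.5 CPM (-1.32 and 2.83). The spinous-like Dsg2 level is read as background, so the difference of 2.83 has no exact size. Dsc2, at 11.6 CPM, lay above both layers. The plaque genes and Perp lay between them: Dsp stood at 1464 CPM, Jup at 847 CPM, Pkp1 at 334 CPM and Perp at 2941 CPM. Trp63 stood at 52.6 CPM in these cells. Nearly all of these cells come from 1 library, so a cell state and a library cannot be told apart.

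At 1 week the Krt8-led cluster 7 held 437 cells, all experimental, and their Dsc1 was at the spinous-like level. Dsc1 stood at 211 CPM, 0.07 above control spinous-like cells on the log2 scale, against 0.700 CPM in control basal-like cells. Dsg1a stood at 569 CPM (1.31 and -1.08), Dsg3 at 278 CPM (-0.59 and 1.54) and Dsc3 at 618 CPM (0.19 and -0.90). The Krt6b-led cluster 10, with 395 experimental cells and 1 control cell and with Krt8 also among its leading genes, combined levels of several layers. It held 447 CPM of Dsc1, 315 CPM of Dsg3, 308 CPM of Dsg1a and 368 CPM of Dsc3. Against control spinous-like cells these are log2 differences of 1.15 for Dsc1, 1.72 for Dsg3, -1.97 for Dsg1a and -1.64 for Dsc3. Dsc1 of the outer layers and Dsg3 of the deep ones were therefore both above the spinous-like level in one cluster. Dsg2 stood at 41.7 CPM there, between the control spinous-like (10.2 CPM) and basal-like (159 CPM) levels. At 1 day the Sprr2-led cluster 5 (3213 experimental cells) was near the spinous-like level in Dsg1a, at 1179 CPM (-0.05), and Dsg3, at 90.7 CPM (-0.07), but past 1.5-fold in Dsc1, at 130 CPM (0.95), and Dsc3, at 648 CPM (-0.84).

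**Figure D5:**
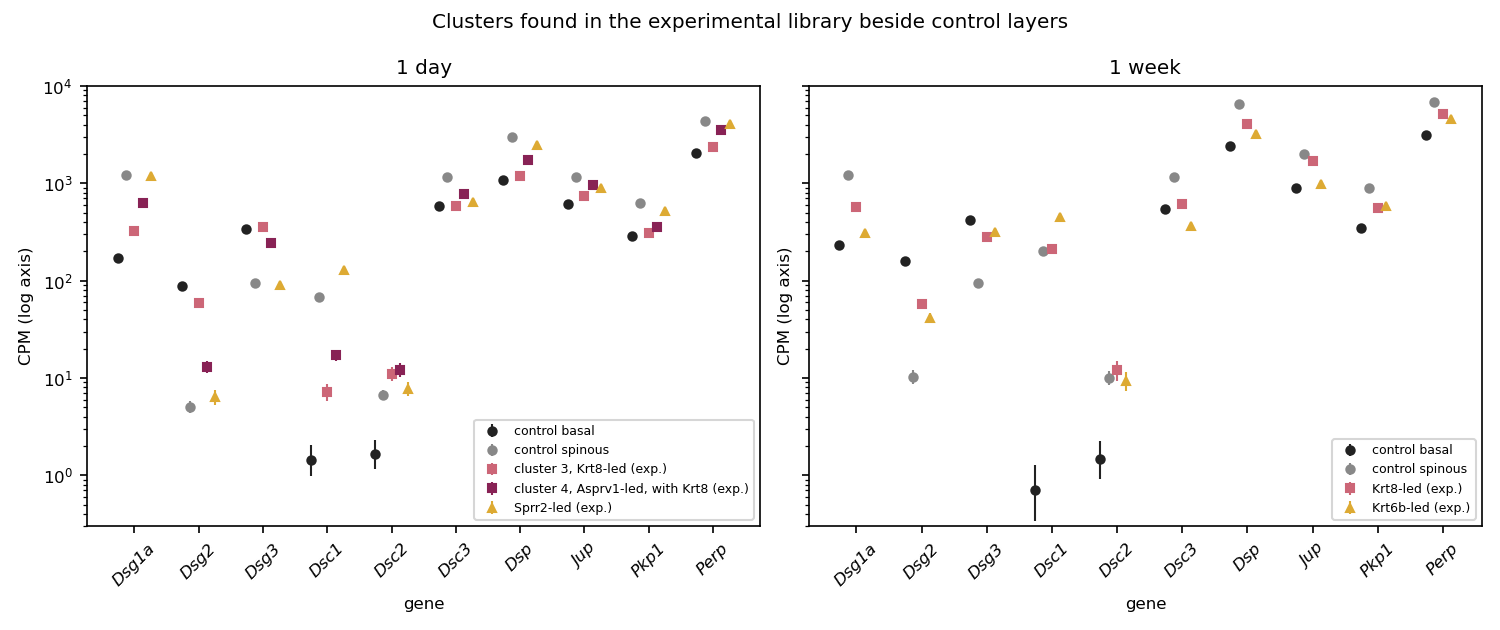
Levels of the 10 genes in CPM (log axis) in control basal-like and spinous-like cells and in clusters 3, 4 and 5 (1 day) and the Krt8-led and Krt6b-led clusters (1 week) of the experimental libraries, each point 1 library sum with its exact Poisson 95% interval. Clusters 3 and 4 lie between the control layers at 1 day for Dsg1a, Dsg2 and Dsc1, and at 1 week the Dsc1 of the Krt8-led cluster (211 CPM) lies at the spinous-like level.

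Dsg1a has near-identical neighbouring copies, Dsg1b and Dsg1c, and reads could be split between them by the counting, so the values of Dsg1a are uncertain in that respect. Dsg1b made up 8.84% of the Dsg1a and Dsg1b UMIs of keratinocytes in control and 6.61% in experimental cells at 1 day. At 1 week it made up 13.5% and 27.5%. The level of Dsg1b at 1 week was 81.4 and 73.5 CPM (log2 ratio -0.15), so the larger share went with the lower Dsg1a rather than with more Dsg1b. In upper follicle-like cells the Dsg1b share was 10.5% and 19.6% at 1 week, with Dsg1b at 71.2 and 83.9 CPM (0.24, and 0.92 with experimental cells classed by their nearest control cells), and in bulge-like cells the share was 33.0% and 47.2%.

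Further genes of the junction and of its neighbours were counted from lists, in keratinocytes, where 7.25% of all genes were lower and 14.3% higher at 1 day and 11.2% and 23.2% at 1 week. Of 10 other desmosome genes 9 had enough UMIs. At 1 day Pkp4, a relative of the plakophilins, was lower (75.0 and 39.3 CPM, -0.93) and Pkp2, the plakophilin of simple epithelia and heart, higher (1.13 and 2.35 CPM, 1.05), with a list median of 0.01. At 1 week Pkp4 (-0.93) and Dsg1c (32 and 5 UMIs, -2.04) were lower, and Pkp2 (0.557 and 5.06 CPM, 3.18) and Cdsn, the corneodesmosin of outer-layer junctions (166 and 279 CPM, 0.75), higher, with a median of -0.15. Of the 4 keratins that desmosomes anchor, Krt5 (-1.15), Krt14 (-0.65) and Krt1 (-0.62) were lower at 1 day, and Krt10 (5242 and 1279 CPM, -2.03), Krt5 (-0.71) and Krt1 (-0.68) at 1 week. Krt14 stood at 0.36 at 1 week. The list medians were -0.63 and -0.69, against -0.07 and -0.36 for the 10 desmosome genes.

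Adherens junctions, the actin-bound junctions beside desmosomes, had 1 of 5 genes lower at each time point and 0 higher (all genes: 7.25% lower and 14.3% higher at 1 day, 11.2% and 23.2% at 1 week), Cdh3 (P-cadherin, 38.5 and 18.5 CPM, -1.05) at 1 day and Ctnnd1 (p120 catenin, -0.69) at 1 week. The list medians were -0.00 and -0.48. Hemidesmosomes, which fix basal cells to the basement membrane, had 3 of 5 genes lower at 1 day (Col17a1 -1.30, Dst -0.998 and Itgb4 -0.93) and 5 of 5 at 1 week, with Col17a1 at -1.59, Dst at -1.47 and Itga6 at -0.88, against the same 7.25% and 11.2% of all genes lower. These are genes of basal cells, and the basal-like clusters held fewer experimental than control cells. The part of cell numbers in these sums was not tested. In 1-day classes made from clusters 0 of the 5 were lower in basal-like (13.7% of all genes), spinous-like (11.5%) and granular-like cells (10.4%). Dst was lower in bulge-like (4.21%) and Col17a1 in upper follicle-like cells (4.57%), and both in sebaceous-like cells (7.17%). Itgb4 was higher in spinous-like (12.5% of all genes higher) and Itga6 and Itgb4 in granular-like cells (11.8%). At 1 week 0 were lower in bulge-like cells (10.9%), and Col17a1 and Dst in upper follicle-like (6.69%) and sebaceous-like cells (12.4%). In basal-like cells by nearest control cells 3 were lower at 1 day (12.8%) and 2 at 1 week (19.4%). In spinous-like cells so classed 2 were lower at 1 day (13.5%) and 3 at 1 week (19.6%). Of 6 genes that process desmosomal proteins, Tgm1, the transglutaminase that crosslinks envelope and desmosomal proteins, was higher at both times (at 1 day 32.7 and 124 CPM, 1.92, and at 1 week 53.9 and 197 CPM, 1.87), and the sheddase Adam10 at 1 day (0.77). In the sums over keratinocytes no gene of that list was lower.

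The genes whose pattern over classes was most like each desmosome gene were found by Pearson's r of log2(CPM + 10) over 26 class and library sums at 1 day and 22 at 1 week. The sums share libraries and depth and take in immune cells and fibroblasts beside keratinocytes. So r is a description with no test, and it mixes likeness over layers with the difference between keratinocytes and other cells. At 1 day Dsp, Jup and Perp were among the 3 closest genes of each other: Dsp was closest to Perp (r = 0.965) and Jup had Serpinb5 (0.975) before Perp (0.966). Pkp1 had Epha4 (0.953) at 1 day and Fam83b (0.974) at 1 week, with Dsp second at both (0.925 and 0.960). Perp was closest to Trim29 at both times (0.975 and 0.973). Dsg1a was closest to Gltp (0.970) at 1 day and Bbox1 (0.940) at 1 week, and Dsc1 to Cysrt1 (0.969) and Calm4 (0.952). Dsg3 was closest to Itga6 (0.925) at 1 day and Bcam (0.924) at 1 week, and Dsg2 to Pdlim1 at both (0.887 and 0.895). Dsc3 was closest to Sfn (0.924) and Serpinb5 (0.934). The rare Dsc2 had no close partner at 1 day, with 0.684 for Skp1a, and 0.870 for Aldh3b2 at 1 week.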

How the data were processed

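Whole-number UMI counts per gene and barcode were deposited by the authors for 4 libraries. Per the submitters' processing notes Cell Ranger 5.0.1 and Seurat were used with build mm10. The 1-day libraries also hold counts of antibody tags. The 10 genes, the other gene lists and the methods were chosen with earlier results of these data known, and the limits used to name clusters were set after the data were seen.

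Barcodes under 500 UMIs or 300 genes, or over 15% mitochondrial UMIs, were removed. The automatic threshold of Scrublet marked 19.4% of barcodes in the 1-day control and 0.00314% to 0.0121% in the others, so the highest scores were removed at 0.8% per 1000 barcodes (24.4%, 25.5%, 19.9% and 14.7%, in the order of the libraries above). This left 23047, 23741, 19915 and 15639 cells. Doublets of 1 cell type cannot be marked this way. The cells of a time point were clustered together in scanpy 1.11.5 (2000 variable genes, 30 principal components, 15 neighbours, Leiden resolution 1) with 20 desmosome genes held out, and clusters were named from marker lists. Clusters with a median under 3000 UMIs and a profile close to the library's shallow barcodes were set aside (145 and 2323 cells at 1 day, 11475 and 11189 at 1 week). Close meant a correlation of at least 0.95 at 1 day and at least 0.83 at 1 week. The 1-week limit was thus looser, and the numbers set aside do not compare between the time points. Clusters that mixed markers of cell types, that could not be named or in which Krt8 and other Merkel cell markers outnumbered keratinocyte class markers among the leading genes were kept out of keratinocyte sums. Of the rest, clusters with at least 95% experimental cells are those called found almost only in that library. UMIs were summed per library and class and scaled to CPM. A gene counts as higher or lower past 1.5-fold with at least 20 UMIs over both libraries. Exact intervals used scipy 1.17.1 at 95%, and TMM factors edgeR 4.0.16 in R 4.3.3. Steps were tested on simulated data. All 10 genes are described. From other lists, up to 3 genes per direction past 1.5-fold are named. Motifs were searched in RefSeq promoter windows.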

Additional observations from a re-analysis of the deposited data

Results flagged for a closer look

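The log2 ratio of Dsg1a in keratinocytes was 0.22 at 1 day and -1.42 at 1 week, so the experimental library stood above its control at one time and below it at the other. The difference between the time points was not tested, since each group is 1 library. The kits differ too (3′ at 1 day and 5′ at 1 week). At 1 day the direction turned to -0.42 when the clusters found almost only in the experimental library were left out.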

How the results depend on the processing

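No paired analysis was possible because each group is 1 library and the labels give no replicate numbers, and for the same reason no library could be left out in turn. Under the first list of alternatives 773 log2 ratios stayed inside the counting interval of the main value and 340 moved outside it. Another 6 that had passed 1.5-fold changed sign. Under the alternatives added after seeing the data 52 stayed, 64 moved and 1 that had passed 1.5-fold changed sign. The interval is wide for genes with few UMIs, so a ratio that stayed inside it need not be near the main value. Ratios with a level of 0 after subtraction are in none of these counts. Ratios within 1.5-fold that changed sign are counted among those that stayed or moved; Dsg1a in keratinocytes at 1 day moved from 0.22 to -0.42 without the clusters found almost only in the experimental library. Shares of desmocollin UMIs that changed sign are given below. Counts of genes in keratinocytes and of gene and class pairs (60 pairs at 1 day, 0 lower and 16 higher, and 30 at 1 week, 4 lower and 7 higher) depended on the settings as follows.

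At 1 day, subtracting the free RNA of immune cells gave 4 genes lower and 1 higher, 26 pairs lower and 6 higher, and log2 ratios of -1.35 for Dsc2 in basal-like and -1.06 for Dsp in sebaceous-like cells. Classes from the nearest control cells gave 2 pairs lower, Dsp in granular-like and Dsc3 in spinous-like cells. A 2-fold limit gave 1 gene and 10 pairs higher. In the antibody-tag groups 1 gene (Dsc1) was past 1.5-fold in every combination.

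At 1 week, TMM scaling gave 5 genes lower. A 2-fold limit gave 1 gene and 1 pair lower. Leiden resolution 2 gave 7 pairs lower and 2 higher. Weighting by control shares, over classes with at least 50 cells in both libraries only, gave 1 gene higher, with Dsc1 at -0.92. Leaving out the clusters found almost only in the experimental library also gave 1 gene higher. Classes from the nearest control cells allowed 5 classes (50 pairs) and gave 13 of these pairs higher, a log2 ratio of 0.84 for Dsg1a in sebaceous-like cells and, in upper follicle-like cells, differences in the share of desmocollin UMIs of 7.18 percentage points for Dsc1 and -8.04 for Dsc3. The mean of CPM over cells gave 0.15 for Dsg1a in sebaceous-like cells. Pkp1 in sebaceous-like cells was -0.53 with the free RNA of immune cells and -0.84 with that of Langerhans-like cells subtracted. The latter gave 5 genes lower, 8 pairs lower and 4 higher. The counts in this section have no share of all genes under the same setting beside them. The causes were not tested. Depth limits Dsc2 throughout, Dsg2 and Dsg3 in granular-like cells and Dsc1 in basal-like and bulge-like cells.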
